A study of Schistosoma mansoni with 12 samples.

Results

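Praziquantel, the drug given against schistosomiasis, is made as a mixture of a pair of mirror-image molecules that differ only in the handedness of a single stereocentre. The R form (R-PZQ) and the S form (S-PZQ) were set directly against each other here, in 264 transcripts of adult male Schistosoma mansoni, a blood fluke. The 264 were those that the authors listed as changed against vehicle both for R-PZQ and for S-PZQ, of 1928 transcripts listed for either. They made up 20.6% of the 1284 listed for R-PZQ and 29.1% of the 908 listed for S-PZQ, belonged to 256 loci, and a product name was missing for 85 (32.2%). A transcript listed for only 1 of the forms has no values for the other in these tables and was not compared.

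The worms were 49-day-old males of the Puerto Rican PR-1 strain, kept for 18 hours with R-PZQ at 0.5 µM, with S-PZQ at 0.5 µM or with vehicle, 1% DMSO. Whether the drug groups also carried DMSO is not stated in the labels. Each group had 4 samples, each a pool of about 41 whole worms, and 1 stranded mRNA library was made per pool. The labels do not say whether the pools came from separate host infections, so the p-values measure the spread between these pools, and a pool of whole worms cannot tell fewer cells of a type from less RNA per cell. Dose and time were the same for both forms, so 1 pair of compounds was compared.

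The drug is known to let calcium into the worm, to contract its muscle and to damage its tegument, the living outer layer. The R form is known as the more potent, and it opens a calcium-permeable channel of the TRPM family. Ryanodine receptors release calcium from stores inside muscle, titin-like proteins hold the contractile filaments in register, tubulins build microtubules, and ubiquitin marks damaged proteins for destruction.

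Levels below are counts divided by a size factor per library (normalized counts). The authors scaled the tables of each form separately, and the vehicle libraries that both hold were used to put them on 1 scale. The difference is given as a log2 ratio, R-PZQ over S-PZQ, with its standard error. A transcript was called when edgeR's quasi-likelihood test over the 8 R-PZQ and S-PZQ libraries gave a Benjamini-Hochberg adjusted p under 0.05 across the 264. By that rule 24 of the 264 (9.09%) were called, with 13 higher (4.92%) and 11 lower (4.17%) in R-PZQ worms than in S-PZQ worms. With TMM scaling on the same transcripts the split was 12 higher and 16 lower. The 4 R-PZQ and 4 S-PZQ values did not overlap in 36 of the 264 (13.6%) and in 23 of the 24 called. The median log2 ratio over all 264 was 0.04.

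The authors' listing already fixes part of this count. Of the 264, 72 were listed as higher than vehicle for both forms, 183 as lower for both, and 9 in opposite directions, all against the same 4 vehicle libraries. In those 9 the order of R-PZQ and S-PZQ follows from the listing, so their differences are given as sizes, with no p-value. Among the other 255 the listing does not set which form is higher, and 15 (5.88%) were called, 9 higher (3.53%) and 6 lower (2.35%) with R-PZQ. The adjusted p-values of the 15 come from the adjustment over all 264, which the 9 entered. Small p-values among the 9 ease the threshold for the rest, and an adjustment over the 255 alone was not made. Of these 15, the 8 higher and listed above vehicle and the 6 lower and listed below it had their R-PZQ mean farther from vehicle than their S-PZQ mean. The remaining one, a serine/threonine kinase, had its S-PZQ mean farther from vehicle. Over all 255, called or not, the ratio was on the side of R-PZQ in 163. Only 72 of the 255 were listed above vehicle, so most of the 163 were listed below it. In a transcript listed below vehicle, a higher R-PZQ level puts the S-PZQ mean farther from vehicle. On the scale used here, the order among the 15 called therefore does not stand for the 255. The 163 depends on that scale, since the median log2 ratio over the 264 was 0.04 here and -0.02 with TMM scaling. It was 0.005 with DESeq2 size factors computed on the 264.

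**Figure D1:**
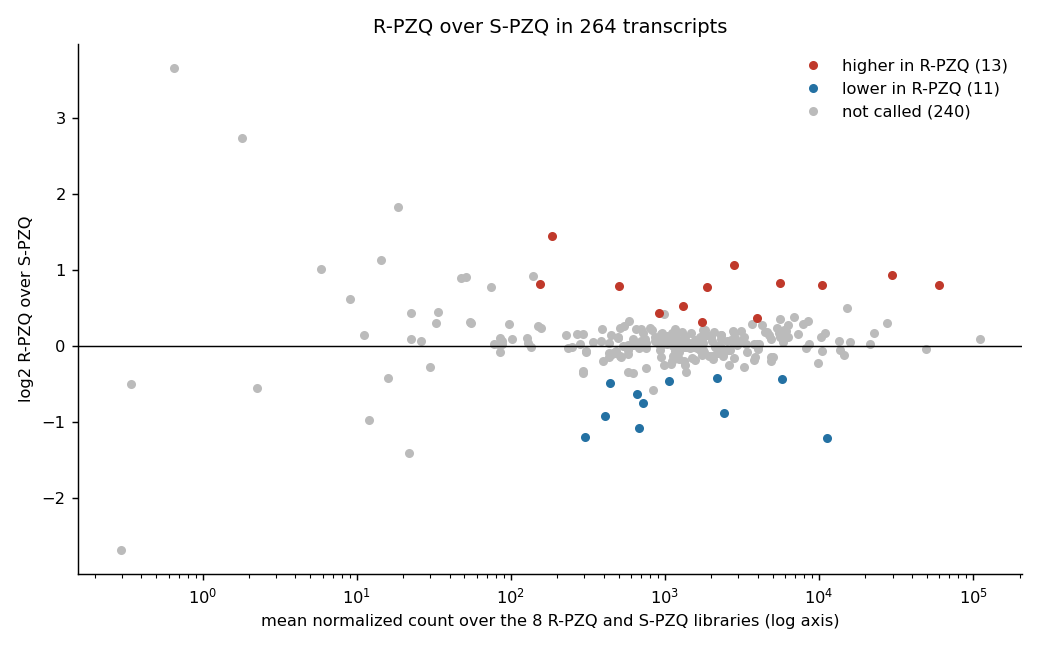
Each point is 1 of the 264 transcripts, with its mean normalized count over the 8 R-PZQ and S-PZQ libraries on the x axis (log scale) and the ratio between the forms (log2, R-PZQ to S-PZQ) on the y axis. The 13 called higher with R-PZQ are red, the 11 called lower are blue and the 240 not called are grey; the wide scatter at the left is of transcripts with few counts.

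Relative depth was lower with R-PZQ than with S-PZQ by a margin that missed the 0.05 threshold, and the calls are read beside it. The size factor was 1.01 ± 0.111 with R-PZQ and 1.27 ± 0.155 with S-PZQ (SD, n = 4 each), and 1.03 ± 0.189 with vehicle. The exact permutation test of R-PZQ against S-PZQ (two-sided) gave p = 0.0571, where 0.0286 is the smallest that 4 against 4 allows. With relative depth as a covariate in the fit, 7 transcripts were called (3 higher, 4 lower), and 6 of them were among the 24. All 24 kept their sign in that fit, their median absolute log2 ratio was 0.67 against 0.80 without the covariate, and their standard errors were 1.60 times as large. The 6 were the ryanodine receptor related transcript, titin (Smp_157010), flightless-I, the protein kinase Smp_142620 and the unnamed Smp_172460 and Smp_057410. Of these, only Smp_172460 and Smp_057410 were listed in the same direction for both forms. The 24 include the 9 listed in opposite directions, whose sign follows from the listing.

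Single libraries also stood apart. S-PZQ replicate 1 stood at the high end of its group, far from the other 3, in 16 of the 264. Vehicle replicate 1 stood apart at either end in 17. The 7 eggshell and tyrosinase transcripts of the female reproductive tract summed to 52.2 to 247 normalized counts in R-PZQ libraries, to 26.1 to 160 in S-PZQ libraries and to 69.1 to 6202 in vehicle libraries, with vehicle replicate 1 the highest and vehicle replicate 3 next at 1059. Each of the 7 had counts in at least 1 library of each group, and single values were 0 in 7 of the R-PZQ, 7 of the S-PZQ and 9 of the vehicle values. None of the 7 was called between R-PZQ and S-PZQ by edgeR, and vehicle libraries did not enter that test. The values of the forms did not overlap in 1 of them, Smp_112450, at 3.41, 2.10, 3.17 and 4.18 normalized counts with R-PZQ, against 0, 0, 1.53 and 0 with S-PZQ, and limma on log2 values called it (log2 difference 1.72, adjusted p = 0.0283).

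The 9 transcripts listed on opposite sides of vehicle included a ryanodine receptor related transcript, titin and both tubulin beta transcripts, with R-PZQ on the upper side. The others were a pair of kinases, flightless-I, a septate junction protein and an unnamed transcript, with R-PZQ on the lower side. With R-PZQ, 4 of the 9 were above vehicle while with S-PZQ they were below it. The ryanodine receptor related transcript (Smp_163570) had 36154, 39010, 40355 and 41198 normalized counts in R-PZQ worms, against 21694, 18166, 21437 and 20262 in S-PZQ worms and 28036, 33915, 32221 and 32032 in vehicle worms. The 3 groups did not overlap, with R-PZQ the highest and S-PZQ the lowest. Its level with R-PZQ was 1.92 times that with S-PZQ (log2 ratio 0.94 ± 0.11, 95% interval 0.71 to 1.18).

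Titin (Smp_157010), named for the giant elastic protein of the sarcomere, had 6781, 6918, 6987 and 7844 normalized counts with R-PZQ, against 3920, 3889, 3987 and 4192 with S-PZQ and 4958, 6421, 5920 and 5677 with vehicle. Here too the groups lay apart (log2 ratio 0.84 ± 0.09, interval 0.65 to 1.02). A second locus named titin, Smp_163920, averaged 721 ± 82.3 with R-PZQ, 687 ± 82.1 with S-PZQ and 445 ± 89.7 with vehicle (SD, n = 4 each). It was not called between the forms, with an interval of -0.19 to 0.33, and it was named after its values were seen. Whether the titin loci differ in their ratio was not tested.

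Both tubulin beta transcripts, which encode a subunit of microtubules, followed the same order. Smp_030730 had 72031, 93505, 66808 and 73375 normalized counts with R-PZQ, against 51143, 38394, 44571 and 41117 with S-PZQ and 56799, 68684, 51596 and 58006 with vehicle. R-PZQ and S-PZQ values did not overlap, while R-PZQ replicate 3 lay below vehicle replicate 2. Smp_164480 averaged 13227 with R-PZQ, 7587 with S-PZQ and 10228 with vehicle. The log2 ratios were 0.80 ± 0.14 (interval 0.50 to 1.11) for Smp_030730 and 0.80 ± 0.13 (interval 0.51 to 1.09) for Smp_164480. Beta tubulin genes are often close copies of each other, so reads may have been split between them. This was not tested, and the values of both are uncertain to that extent.

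With R-PZQ, 5 of the 9 were below vehicle while with S-PZQ they were above it. The protein kinase Smp_142620 had 176, 211, 174 and 174 normalized counts with R-PZQ, against 435, 454, 410 and 377 with S-PZQ and 323, 275, 308 and 343 with vehicle. No group overlapped another, and the level with S-PZQ was 2.28 times that with R-PZQ (log2 ratio -1.19 ± 0.13, interval -1.48 to -0.90). Protein kinases pass signals on by adding phosphate to other proteins.

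Flightless-I (Smp_165930), whose fly relative is an actin-remodelling protein of the gelsolin family, had 2005, 1618, 1409 and 1757 normalized counts with R-PZQ, against 3162, 3261, 3119 and 2956 with S-PZQ and 2382, 2310, 2797 and 2105 with vehicle. The R-PZQ libraries were all below and the S-PZQ libraries all above the vehicle ones (log2 ratio -0.88 ± 0.11, interval -1.11 to -0.65). The septate junction transcript (Smp_176350), named for the junctions that seal invertebrate epithelia, averaged 538 ± 53.5 with R-PZQ, 898 ± 78.7 with S-PZQ and 732 ± 65.8 with vehicle (SD, n = 4 each). Its log2 ratio was -0.74 ± 0.11 (interval -0.97 to -0.50), and the lowest S-PZQ library reached the highest vehicle library.

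The tyrosine kinase Smp_136550 averaged 520 ± 87.4 with R-PZQ, 806 ± 44.9 with S-PZQ and 685 ± 31.3 with vehicle (SD, n = 4 each; log2 ratio -0.63 ± 0.12, interval -0.90 to -0.36). The largest difference on this side was that of an unnamed transcript, Smp_146720, with 8165, 4476, 6155 and 8587 normalized counts with R-PZQ, against 16002, 15368, 16801 and 14843 with S-PZQ and 12648, 9028, 11200 and 10126 with vehicle. Its log2 ratio was -1.20 ± 0.17 (interval -1.58 to -0.83), and no group overlapped another. These 9 are counted among the 24 called, and nothing is read from that, since the listing chose them.

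**Figure D2:**
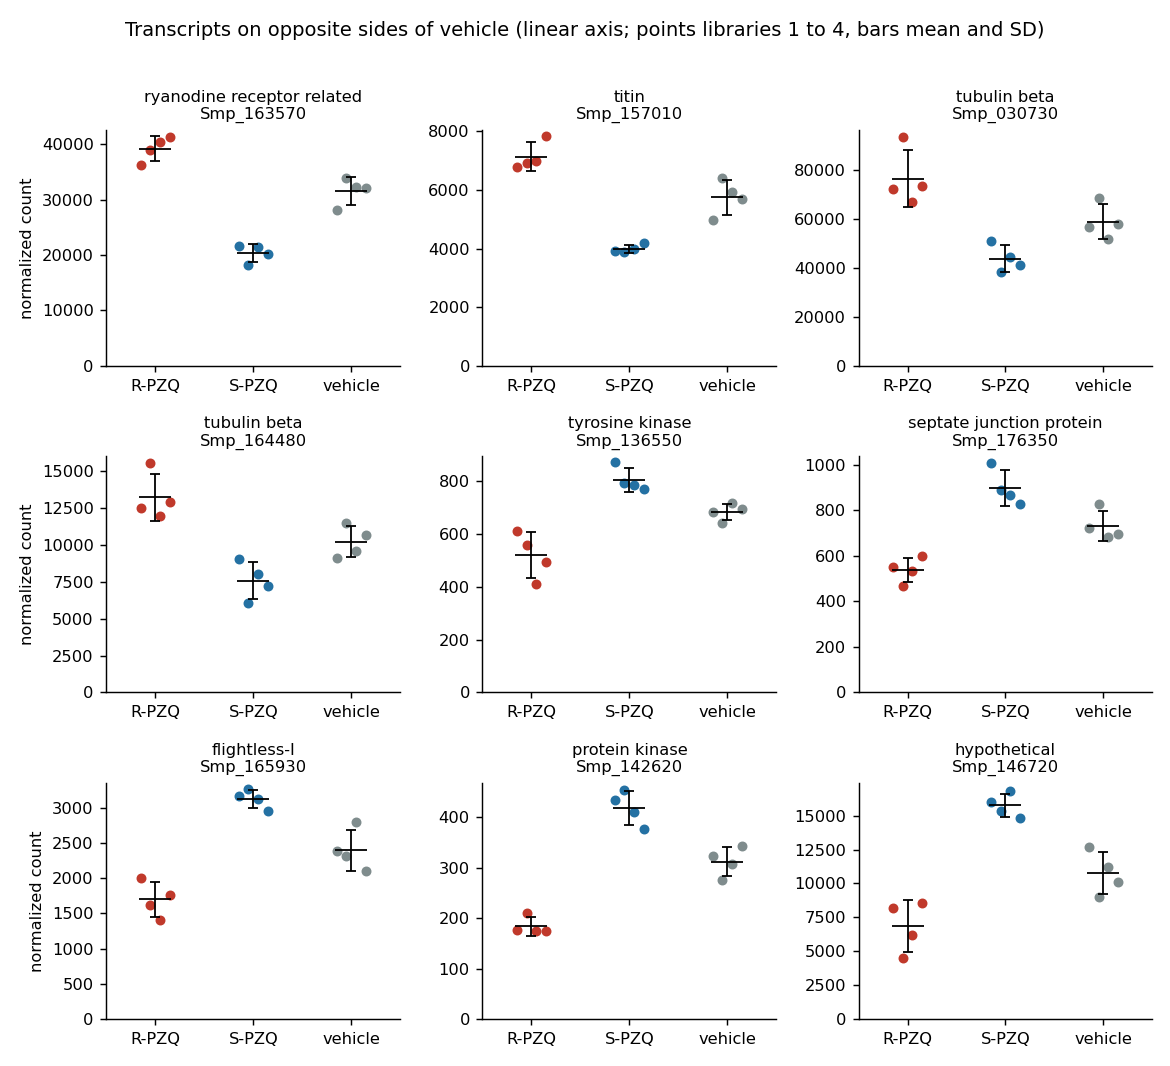
Normalized counts (linear axis from 0) of the 9 transcripts listed on opposite sides of vehicle, for R-PZQ, S-PZQ and vehicle libraries 1 to 4 (points), with the group mean and SD (bars). In the first 4 panels R-PZQ is highest and S-PZQ lowest, and in the other 5 S-PZQ is highest and R-PZQ lowest.

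Among the transcripts listed above vehicle for both forms, 8 of 72 (11.1%) were called higher with R-PZQ than with S-PZQ and 0 were called lower, where 3.53% and 2.35% were so over the 255. Whether the share differs from that of the transcripts listed below vehicle was not tested. Ubiquitin 1 (Smp_123260), the tag of proteins bound for the proteasome, had 2134, 2190, 2348 and 2851 normalized counts with R-PZQ, against 998, 1540, 1389 and 1587 with S-PZQ and 1275, 521, 805 and 662 with vehicle. All R-PZQ libraries were above all others, while S-PZQ replicate 1 fell within the vehicle range. The R-PZQ level was 1.73 times the S-PZQ level (log2 ratio 0.79 ± 0.14, interval 0.47 to 1.10, adjusted p = 0.00269 by edgeR's quasi-likelihood test). With all 12 libraries in 1 fit, ubiquitin 1 was not called, nor were setb1, Smp_174240.1, Smp_123020 and pericentrin, which follow.

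A histone-lysine methyltransferase named setb1 (Smp_043580), whose mammalian relatives silence chromatin, had 206, 176, 201 and 204 normalized counts with R-PZQ, against 120, 108, 104 and 115 with S-PZQ and 94.9, 56.3, 73.1 and 59.5 with vehicle. The groups did not overlap (log2 ratio 0.82 ± 0.20, interval 0.39 to 1.25, edgeR adjusted p = 0.0193). The call ended without R-PZQ replicates 1 or 4 or S-PZQ replicates 2 or 3 (log2 ratio 0.78 to 0.80, edgeR adjusted p 0.0545 to 0.0808).

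A LIM domain binding protein (Smp_149020), of a family that bridges transcription factors, had 1634, 1477, 1678 and 1401 normalized counts with R-PZQ, against 937, 1087, 1197 and 1046 with S-PZQ and 794, 743, 902 and 788 with vehicle. R-PZQ was the highest and vehicle the lowest group with no overlap (log2 ratio 0.54 ± 0.10, interval 0.32 to 0.75, edgeR adjusted p = 0.00269). The splicing factor CLF1 (Smp_148230), a scaffold of the spliceosome in yeast, averaged 1051 ± 137 with R-PZQ, 775 ± 53.6 with S-PZQ and 562 ± 82.5 with vehicle (SD, n = 4 each; log2 ratio 0.44 ± 0.11, edgeR adjusted p = 0.0227). Its call ended without R-PZQ replicates 2 or 3 or S-PZQ replicates 1, 2 or 4 (0.36 to 0.45). A cell division control protein (Smp_129320) had the smallest called ratio, 0.32 ± 0.08, with 1926 ± 124 normalized counts with R-PZQ, 1548 ± 60.3 with S-PZQ and 1274 ± 63.1 with vehicle (edgeR adjusted p = 0.0285). That call ended without R-PZQ replicates 1, 2 or 4 or S-PZQ replicates 2, 3 or 4 (0.28 to 0.34). With TMM or DESeq2 size factors computed on the 264, neither CLF1 nor Smp_129320 was called.

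The other 3 of the 8 had no product name. Smp_172460 had 3575, 4095, 3360 and 4085 normalized counts with R-PZQ, against 1547, 1896, 1620 and 2113 with S-PZQ and 1679, 1018, 1190 and 1232 with vehicle. R-PZQ stood clear of both other groups, at 2.11 times the S-PZQ level, while S-PZQ and vehicle overlapped (log2 ratio 1.08 ± 0.12, interval 0.82 to 1.33, edgeR adjusted p = 7.48e-05). Smp_174240.1 had 374, 258, 270 and 183 normalized counts with R-PZQ, against 59.2, 140, 53.4 and 144 with S-PZQ and 0.847, 0, 22.1 and 0 with vehicle. It had the largest called ratio and the widest interval among the calls (1.45 ± 0.34, interval 0.70 to 2.20, edgeR adjusted p = 0.0192), and its call ended without R-PZQ replicates 1 or 3 (1.26 to 1.45). Smp_129510 averaged 640 ± 82.5 with R-PZQ, 368 ± 47.9 with S-PZQ and 238 ± 49.1 with vehicle (SD, n = 4 each; log2 ratio 0.80 ± 0.12, edgeR adjusted p = 0.000984); it was named after its values were seen.

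Among the transcripts listed below vehicle for both forms, 6 of 183 (3.28%) were called lower with R-PZQ than with S-PZQ and 1 was called higher, beside the same 2.35% and 3.53% over the 255. The largest of the 6 came from a pair of neighbouring genes. Smp_057410 had 463, 396, 417 and 463 normalized counts with R-PZQ, against 1069, 755, 949 and 886 with S-PZQ and 740, 1752, 1737 and 2178 with vehicle. The S-PZQ level was 2.10 times the R-PZQ level (log2 ratio -1.07 ± 0.12, interval -1.33 to -0.81, edgeR adjusted p = 7.48e-05). Vehicle replicate 1 lay below every S-PZQ library, and the other 3 vehicle libraries lay above them all. Smp_152960, the adjacent protein-coding gene on chromosome 7 in the RefSeq annotation (assembly ASM23792v2), had 301, 186, 331 and 307 normalized counts with R-PZQ, against 553, 454, 599 and 525 with S-PZQ and 585, 1029, 1209 and 1278 with vehicle (log2 ratio -0.92 ± 0.17, edgeR adjusted p = 0.00269). Neither carries a product name, both had their lowest vehicle value in replicate 1, and Smp_152960 was named after its values were seen.

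The TAR RNA binding protein (trbp, Smp_023670), whose mammalian relative helps Dicer process small RNAs, had 914, 938, 853 and 868 normalized counts with R-PZQ, against 1393, 1075, 1259 and 1153 with S-PZQ and 1437, 2137, 1624 and 1863 with vehicle. The groups did not overlap (log2 ratio -0.45 ± 0.10, interval -0.67 to -0.23, edgeR adjusted p = 0.0103). The pericentrin fragment (Smp_051510), named for a centrosome scaffold, averaged 1871 ± 195 with R-PZQ, 2499 ± 346 with S-PZQ and 4370 ± 1148 with vehicle (SD, n = 4 each; log2 ratio -0.42 ± 0.12, edgeR adjusted p = 0.0393). It was the only called transcript whose R-PZQ and S-PZQ values overlapped, and its call ended without R-PZQ replicates 1, 2 or 3 or S-PZQ replicates 1, 3 or 4 (-0.43 to -0.34). The unnamed Smp_164440 (-0.49 ± 0.10, edgeR adjusted p = 0.00676) and Smp_107700 (-0.43 ± 0.11, edgeR adjusted p = 0.0248) completed the 6. The call of Smp_107700 ended without R-PZQ replicates 3 or 4 or S-PZQ replicates 2, 3 or 4 (-0.45 to -0.36). Pericentrin, Smp_164440 and Smp_107700 were named after their values were seen.

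The exception on this side was the serine/threonine kinase Smp_123020, with 4164, 4455, 4743 and 4592 normalized counts with R-PZQ, against 3677, 3200, 3789 and 3216 with S-PZQ and 4774, 6279, 5700 and 7394 with vehicle. Here S-PZQ was the lowest group, and no groups overlapped (log2 ratio 0.37 ± 0.09, interval 0.17 to 0.57, edgeR adjusted p = 0.0193). The call ended without R-PZQ replicates 3 or 4 or S-PZQ replicates 2 or 4 (0.33 to 0.36).

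**Figure D3:**
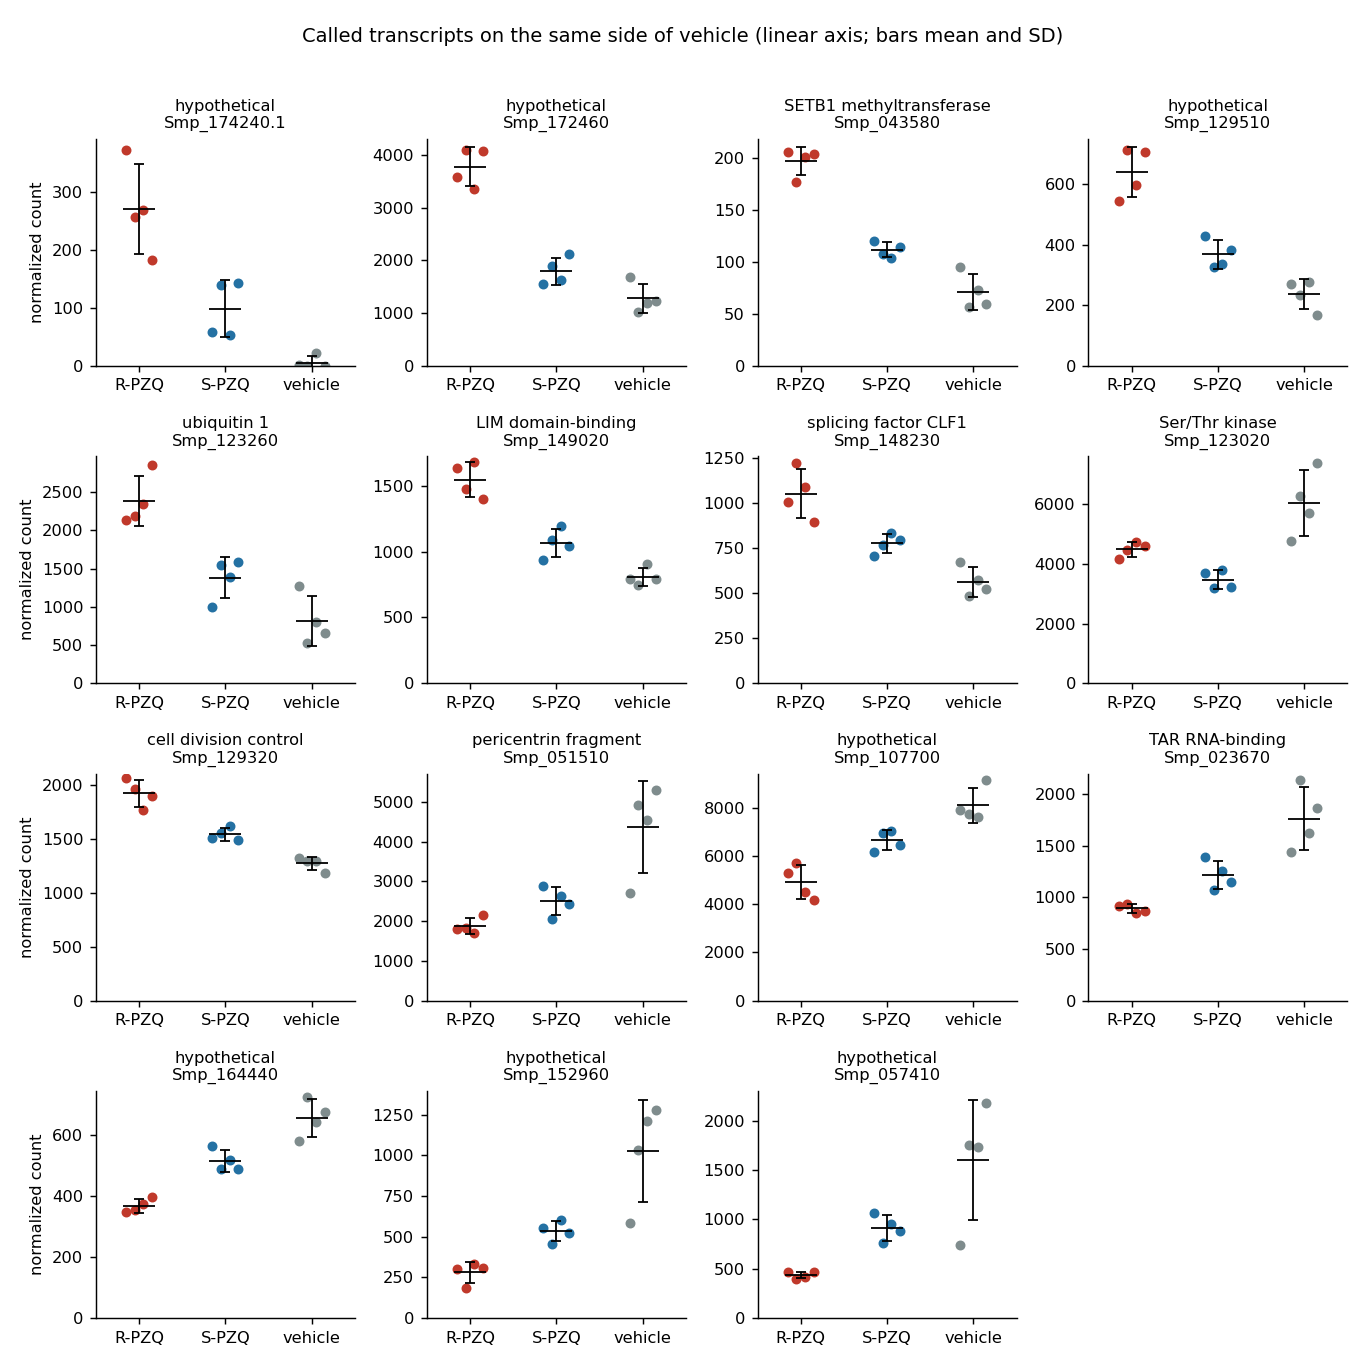
Normalized counts (linear axis from 0) of the 15 called transcripts listed on the same side of vehicle for both forms, by library (points), with group mean and SD (bars); groups run R-PZQ, S-PZQ, vehicle. In 14 panels the S-PZQ mean lies between the R-PZQ and the vehicle mean, and in that of the Ser/Thr kinase S-PZQ is lowest.

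**Figure D4:**
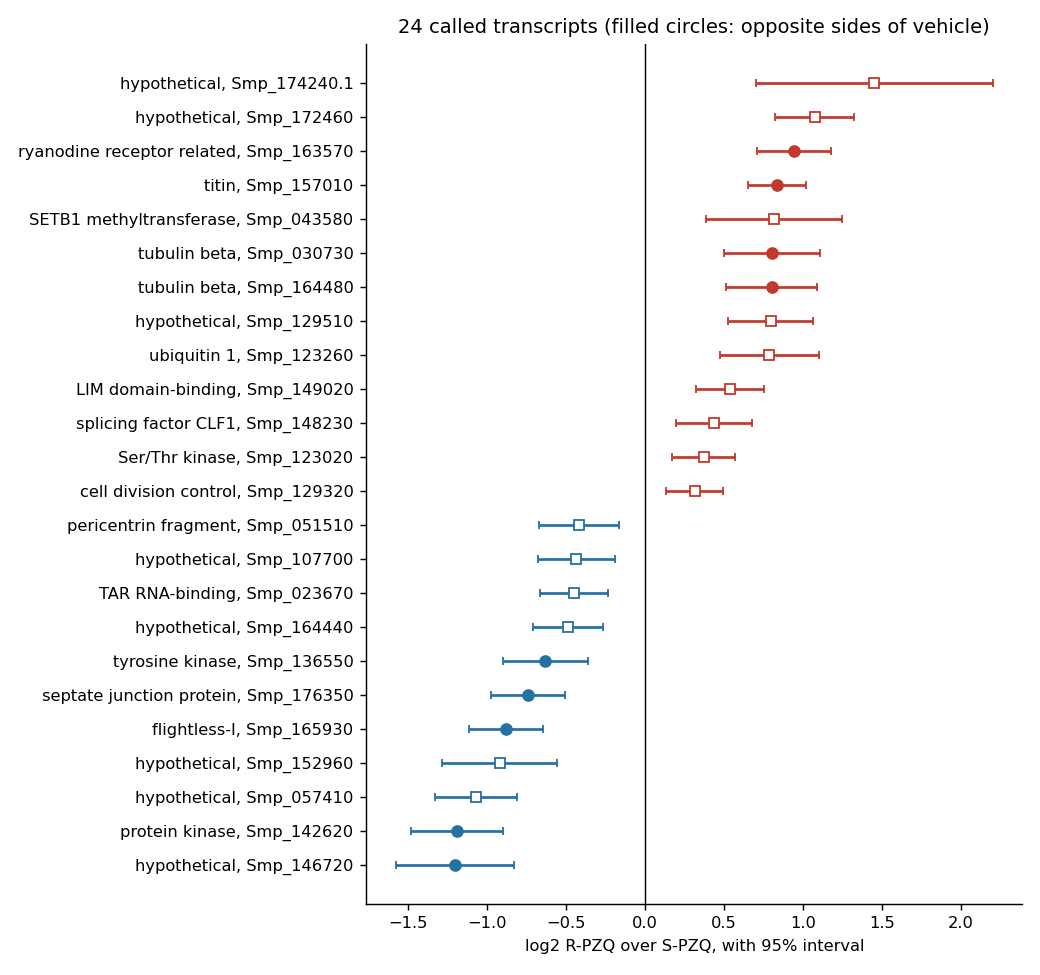
Ratio between the forms (log2, R-PZQ to S-PZQ) with its 95% interval for the 24 called transcripts, red where higher and blue where lower with R-PZQ; filled circles mark the 9 on opposite sides of vehicle and open squares the other 15. The ratios run from -1.20 to 1.45, and the widest interval is that of Smp_174240.1. For the 9, the order of the forms follows from the listing.

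Most transcripts did not pass between the forms, and for many the interval was narrow. Of the 240 not called, 185 had a 95% interval inside a 1.5-fold difference either way and 207 inside 2-fold, while 30 had an interval that reached 2-fold. Of these 30, 28 averaged under 200 normalized counts, and for all 30 a 2-fold difference lies within the interval. The remaining 3 had no interval, since at least 1 form was at 0 in all its libraries. The interval closest to no difference among named products was that of cullin (Smp_082850.1), a scaffold of ubiquitin ligases, with 1412, 1369, 1469 and 1491 normalized counts with R-PZQ, against 1483, 1464, 1417 and 1472 with S-PZQ and 1846, 1789, 1865 and 2464 with vehicle (log2 ratio -0.02 ± 0.08, interval -0.19 to 0.14). The groups of the forms overlapped, and both lay below vehicle, the side on which the authors listed it for both forms.

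Similarly narrow intervals belonged to calcineurin B (Smp_064950), the calcium-binding subunit of a phosphatase, at -0.15 to 0.21, and to an arginine/serine-rich splicing factor (Smp_071640.1) at -0.21 to 0.18. A sodium/chloride dependent transporter (Smp_028690) had an interval of -0.19 to 0.21. Sestrin (Smp_147400), a stress-response protein, averaged 4000 ± 205 with R-PZQ, 3987 ± 393 with S-PZQ and 5262 ± 600 with vehicle (SD, n = 4 each; interval -0.20 to 0.21).

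By function, each count below stands beside the 9.09% called over all 264 and the 5.88% called over the 255 listed in the same direction. The groups hold few transcripts. In the calcium group 1 of 5 was called, the ryanodine receptor related transcript above, with a group median log2 ratio of 0.12. Calmodulin (Smp_096410.1), the main intracellular calcium sensor, averaged 879 ± 124 with R-PZQ, 759 ± 101 with S-PZQ and 1249 ± 268 with vehicle (SD, n = 4 each; log2 ratio 0.21 ± 0.13). The L-type calcium channel (Smp_124530), which admits calcium across the cell membrane, averaged 2166 ± 561 with R-PZQ, 2303 ± 565 with S-PZQ and 3818 ± 1314 with vehicle (SD, n = 4 each), with an interval of -0.52 to 0.34 for its log2 ratio. A 16 kDa calcium-binding protein (Smp_025380) had a log2 ratio of 0.12 ± 0.15. The channel and this protein were named after their values were seen.

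In the cytoskeleton and vesicle traffic group 2 of 8 were called, both tubulin beta, with a median of 0.07. In kinases and phosphatases 3 of 11 were called, 1 higher and 2 lower, with a median of -0.01, and these are the 3 kinases above, of which the 2 lower ones were fixed by their opposite listing. The ryanodine receptor related transcript, titin and both tubulin beta transcripts were fixed in the same way. In proteasome and ubiquitin 1 of 9 was called, ubiquitin 1, with a median of 0.02. Proteasome subunit beta 2 (Smp_074500.1) had a log2 ratio of -0.15 ± 0.13, with S-PZQ replicate 1 at 2135 normalized counts and the other S-PZQ libraries between 1355 and 1427. Of 8 chromatin regulators 1 was called, setb1, and a cpg binding protein (Smp_022020.1) stood just outside the threshold with no overlap between the forms (log2 ratio 0.34 ± 0.11, edgeR adjusted p = 0.0816). Of 16 RNA processing transcripts 1 was higher and 1 lower, CLF1 and trbp.

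No member of several groups was called. The 9 ribosomal proteins had a median log2 ratio of 0.16, against 0.04 over all 264, led by 60S ribosomal protein L12 (Smp_012750, 0.29 ± 0.12, edgeR adjusted p = 0.210) and 40S ribosomal protein S12 (Smp_060090.1, 0.28 ± 0.12, edgeR adjusted p = 0.236). The 11 mitochondrial transcripts also had a median of 0.16, led by a ubiquinol-cytochrome c reductase subunit (Smp_024120, 0.28 ± 0.12) and cytochrome c (Smp_033400, 0.21 ± 0.12), both parts of the respiratory chain. Without S-PZQ replicate 1 the reductase subunit passed (0.38, edgeR adjusted p = 0.0201). Of the 4 translation factors the largest ratios were those of eukaryotic translation initiation factor 3 subunit 5 (Smp_078320, 0.15 ± 0.09) and eif-1a (Smp_024880, 0.12 ± 0.13), and of the 3 chaperones those of a prefoldin subunit (Smp_009390.1, 0.16 ± 0.10) and a chaperone binding protein (Smp_010160, 0.10 ± 0.11). The medians were 0.09 for translation factors and 0.10 for chaperones. Among 4 redox transcripts the median was 0.04. Ferritin (Smp_087760), the iron store, had 0.19 ± 0.11, and a superoxide dismutase (Smp_095980) with few counts had -0.42 ± 1.07.

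Tegument transcripts numbered 3, with 0 called and a median log2 ratio of 0.50, in a range of 0.12 to 1.02. The surface membrane antigen (Smp_195180) had 15380, 20151, 16684 and 19414 normalized counts with R-PZQ, against 17064, 9851, 10993 and 12752 with S-PZQ and 18122, 28992, 28116 and 32130 with vehicle. The 3 lowest S-PZQ libraries lay under every R-PZQ library, while S-PZQ replicate 1 lay within their range (log2 ratio 0.50 ± 0.16, edgeR adjusted p = 0.104). Without S-PZQ replicate 1 it passed (0.68, edgeR adjusted p = 0.00468), and it also passed with the DESeq2 Wald test (adjusted p = 0.0206), with TMM or DESeq2 size factors in edgeR (adjusted p = 0.0484 and 0.0362) and in edgeR over the 188 transcripts that DESeq or edgeR listed for both forms (adjusted p = 0.0344). Over its alternatives the edgeR, DESeq2 or limma adjusted p ran from 0.00468 to 0.828. A tetraspanin (Smp_155310.1), of a family of membrane proteins, was at 15.9 normalized counts or less in every R-PZQ and S-PZQ library and at 520 in vehicle replicate 1. Its log2 ratio, the 1.02 at the top of the group, rests on these few counts, and the group median depends on it.

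Collagen alpha-1(V), a fibre-forming matrix protein, was measured from a pair of neighbouring loci. Smp_170340 averaged 6293 ± 481 with R-PZQ, 4922 ± 947 with S-PZQ and 3153 ± 954 with vehicle, and Smp_170330 averaged 9493 ± 986 with R-PZQ, 7520 ± 1313 with S-PZQ and 5237 ± 1207 with vehicle (SD, n = 4 each). Neither was called (log2 ratios 0.35 ± 0.14 and 0.34 ± 0.14, edgeR adjusted p = 0.195 and 0.217); both were named after their values were seen. Of the 8 transporters and channels 0 were called, with a median of 0.02. These included a neurotransmitter transporter (Smp_160360) at 675 ± 267 with R-PZQ, 1008 ± 149 with S-PZQ and 1597 ± 292 with vehicle (log2 ratio -0.58 ± 0.23, edgeR adjusted p = 0.217) and an innexin (Smp_117170), of the invertebrate gap junction family, at 0.78 ± 0.40. The neurotransmitter transporter was also the single neuronal transcript. The 7 female reproductive transcripts had a median of 0.31 and ratios from -0.97 (Smp_077890) to 2.74 (Smp_112450), each with an interval that held 0. Of the smaller groups, muscle had 1 of 2 called (titin), and the 2 matrix transcripts were the collagens. Proteases, transcription factors, glycolysis and lipid metabolism had 2 transcripts each and 0 called, with medians of -0.09, 0.03, 0.07 and -0.03.

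**Figure D5:**
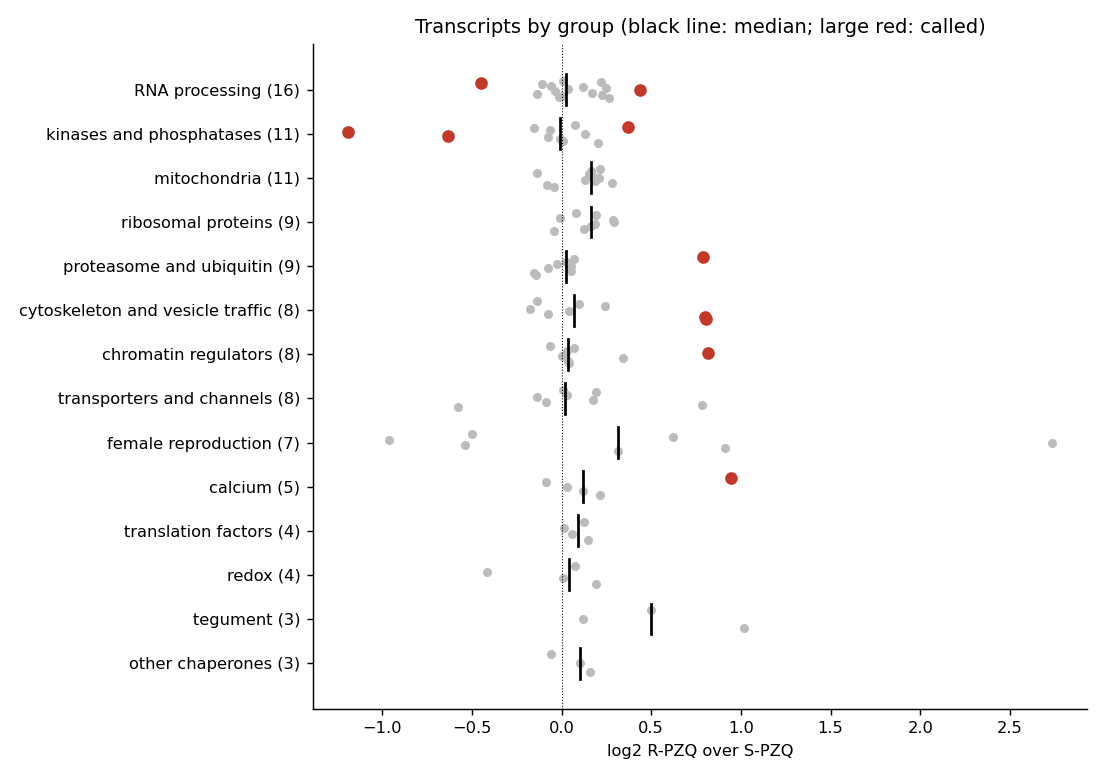
Ratio between the forms (log2, R-PZQ to S-PZQ) (x axis) for the transcripts of each functional group with at least 3 members (rows, with the number of members), with called transcripts as large red points, the others grey and the group median as a black line. The group medians run from -0.01 for kinases and phosphatases to 0.50 for the 3 tegument transcripts; 6 of the 14 groups hold a called transcript.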

How the data were processed

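RNA was measured in 12 libraries, 4 per group. The submitters' processing notes name edgeR 3.20.8, DESeq2 1.18.1, RSEM 1.2.31, Bowtie2 2.2.9 and Trimmomatic 0.36. Neither the genome build nor the version of EBSeq was given in the sources used here. In all, 6 tables were deposited by the authors, from DESeq, EBSeq and edgeR for each form against vehicle, each holding only the transcripts that passed. Per the file headers, the authors' DESeq and edgeR tables hold counts and a normalized score per library, and the authors' EBSeq tables hold expected counts and a normalized signal. The deposited tables also give a log2 fold change, a fold change as a ratio, a p-value or adjusted p-value and, from EBSeq, a score between 0 and 1 (the posterior probability of a difference), which were used to find the 264 transcripts and their directions. For 76 of the 264, EBSeq alone gave the listing for at least 1 form. Among the 9 listed in opposite directions, this held for Smp_136550 with both forms and for Smp_142620 and Smp_176350 with S-PZQ. Both tubulin beta transcripts were listed by DESeq alone.

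Counts of the same vehicle libraries differed by at most 0.48 between tables, and expected counts were rounded to whole numbers, a change of at most 0.5. Size factors came from the deposited normalized values. Those of the R-PZQ and S-PZQ tables differ in scale, by 1.12 on the 4 vehicle libraries with a spread of 0.381%, and were put on 1 scale by that ratio. The tables cover part of each library, so depth is given only as the size factor. The 264 transcripts summed to 864413 to 1329181 counts per library. The sources used here do not say over which transcripts the authors computed the factors.

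R-PZQ was tested against S-PZQ with edgeR 4.0.16 in R 4.3.3 (quasi-likelihood test, robust, no covariate, vehicle libraries left out), with Benjamini-Hochberg adjustment over the 264. The procedure was also run on simulated counts, with an outcome not given here. Those counts did not carry the choice of transcripts against vehicle, so that run is no support for the calls. All tested transcripts had already passed the authors' threshold against vehicle for both forms, so 264 is not the transcriptome. Alternatives used DESeq2 1.42.0, limma 3.58.1, other factors, filters, thresholds, a depth covariate, a replicate block and fits without each library. No 2 libraries agreed within sampling noise (chi-square per degree of freedom at least 26.0). Locus tags and neighbours came from the RefSeq gene table (assembly ASM23792v2), which matched 264 of 264.

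The transcripts and gene groups were chosen with earlier results of these data known. Named were the called transcripts with a product name, a mean of at least 10 and no overlap (up to 12 each way), the 2 largest ratios of each group with at least 3 transcripts, the 5 with intervals nearest to no difference, and the 2 largest unnamed each way. Groups were set by words in the product names. Chromatin regulators, translation factors and a few exclusions were added after the product names were read. Small heat shock proteins, micro-exon genes and cell adhesion had no transcript among the 264.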

Additional observations from a re-analysis of the deposited data

Results flagged for a closer look

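A library was taken to stand apart when its gap to the nearest of the other 3, divided by the range of the group, passed Dixon's critical value at the 95% level, which chance passes in about 1 in 20 groups. Over the 264 transcripts this was so for 12 in the R-PZQ libraries, 24 in the S-PZQ libraries and 29 in the vehicle libraries, with S-PZQ replicate 1 on the high side in 16 and vehicle replicate 1 on either side in 17. In relative depth, R-PZQ replicate 1 stood apart at 1.17.

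Among the called transcripts, the protein kinase Smp_142620 had R-PZQ replicate 2 apart at 211 normalized counts, and setb1 (Smp_043580) had R-PZQ replicate 2 apart at 176. The unnamed Smp_174240.1 had vehicle replicate 3 apart at 22.1. The kinase kept its call without R-PZQ replicate 2, and so did setb1.

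Among the transcripts not called, proteasome subunit beta 2 (Smp_074500.1) had S-PZQ replicate 1 apart at 2135 normalized counts, and the prefoldin subunit (Smp_009390.1) had S-PZQ replicate 2 apart at 949.5. The eggshell synthesis transcript Smp_112450 had S-PZQ replicate 3 apart at 1.53, the other S-PZQ libraries being at 0. Vehicle replicate 1 stood apart for a second eggshell synthesis transcript (Smp_077890) at 580.2, a tetraspanin (Smp_155310.1) at 520.0, superoxide dismutase (Smp_095980) at 738 and initiation factor 3 subunit 5 (Smp_078320) at 2067. Cullin (Smp_082850.1) had vehicle replicate 4 apart at 2464. The vehicle libraries did not enter the test between the forms.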

How the results depend on the processing

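No called ratio changed direction in those of the 21 alternatives that held its transcript. Filters left some called transcripts out of some of them. For the 9 listed in opposite directions the listing set the direction. The stricter threshold reuses the main ratios, and fits without a single library share most of their data with the main fit. With relative depth as a covariate, 7 were called (3 higher, 4 lower; 3 of those listed in the same direction); the cause was not tested. At adjusted p under 0.01, 16 were called, 8 of them higher, with 7 among those listed in the same direction. With the replicate number as a block, 18 were called, 8 of them higher, with 9 among those listed in the same direction, and 17 of the 24 kept their call. Residuals of same-numbered R-PZQ and S-PZQ libraries correlated at -0.47 to 0.03. The labels do not say whether same-numbered samples were paired, and these correlations over the 264 cannot settle it. Over the 188 that DESeq or edgeR listed for both forms, 7 were lower. Smp_142620, Smp_176350, Smp_136550 and Smp_164440, called lower over the 264, were not among the 188 and so were not tested there. Nor was setb1 (Smp_043580), called higher over the 264. Leaving out 1 library at a time gave 19 to 27 called (9 to 17 higher, 9 to 13 lower, 10 to 18 in the same direction) and a depth difference of -0.334 to -0.210. DESeq2 called 25, limma 24, TMM scaling 28 and all 12 libraries together 19. Of the 43 transcripts named by the rule, 795 of 866 alternative values kept direction and side of the threshold, 54 lost the call, 8 gained it and 9 moved by more than 1 SD. Of the 264, 8 averaged under 10 normalized counts. The tables hold no transcript listed for a single form, so differences there were not tested.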
